A study of Mus musculus with 2 samples.

Results

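The genes of the proteasome and of its activators, inhibitor and assembly factors were followed in mouse liver. Members were the protein-coding genes whose GENCODE M21 symbol begins with Psma to Psmg and a number. There were 50 of them among the 55421 genes that both count tables list. Liver RNA was sequenced as 1 library per genotype at a labelled time of 8 weeks, without a statement of what the weeks are counted from. One library, called WT, came from Rcrin flox mice, whose Rcrin alleles carry loxP sites and are otherwise left in place. The other came from Rcrin conditional knockout mice. The annotation used here has no gene of the name Rcrin, so the deletion was not checked in the counts. The Cre driver, the deleted cell type, the sex of the animals and how many mice went into a library are not given in the sources used here. Variation from mouse to mouse could not be measured, so nothing was tested, and each difference described is one between 2 libraries.

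The proteasome is the protease that degrades most short-lived, misfolded and ubiquitin-tagged proteins of the cytosol and nucleus. Its barrel, the 20S core, is built of outer rings of alpha subunits, which form the gate, and inner rings of beta subunits, which hold the active sites. The 19S cap binds ubiquitin chains, removes them and unfolds the substrate with a ring of ATPases. Interferon gamma and cells of the immune system bring in inducible beta subunits that replace the constitutive catalytic ones and change which peptides are made for class I antigen presentation.

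Depth was 65121596 counts for WT and 63587567 for the knockout. Levels are CPM (counts scaled to a fixed library size) after TMM scaling, which assumes that most genes do not change. The log2 ratio is knockout over WT, so a positive value is a higher level in the knockout library. Each ratio carries an exact 95% interval by the Clopper-Pearson method. It reflects counting error alone and is too narrow even for that, because PCR copies of a molecule are not independent. A gene was compared if it had a mean of at least 50 counts, which 12064 genes had, and called higher or lower from a 2-fold difference on. The hepatocyte markers Alb, Ttr, Apoa1, Cps1, Hnf4a and Cyp2e1 were all present, with a summed level of 78390 CPM (WT) and 125365 CPM (knockout), most of it from Alb at 50542 and 89625 CPM. Their log2 ratios ran from 0.01 for Apoa1, which was level, to 1.17 for Hnf4a. Leukocyte genes were also present in both libraries, as given beside the inducible subunits.

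Of the 50 genes, 47 were compared. The constitutive 20S subunits stood higher in the knockout library, all 14 of them, by a median log2 ratio of 0.52. The genes of the 19S cap lay around 0, with a median of -0.02 over 20 genes. Without the assembly chaperone genes Psmd5, Psmd9 and Psmd10 it was 0.04 over 17. The inducible subunits Psmb8 and Psmb9 were lower, at -0.33 and -0.32. Psmd7, a 19S subunit, stood farthest from the others, at -1.52, and was the one member lower by at least 2-fold. No member was higher by as much. Among all genes compared, 8.45% were higher and 8.61% lower by at least 2-fold, so the members past that limit were fewer than among all genes. At a limit of 1.5-fold, 8 members were higher and 1 lower, of 47, against 19.0% and 18.8% of all genes. These shares include genes with fewer counts than any member compared. Genes within the members' range of counts are given next.

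Over the 47 members the median log2 ratio was 0.17 and the middle 50% ran from -0.10 to 0.51, a width of 0.61. All genes compared had a median of -0.01 and a width of 0.88. The 5671 genes of at least 3 exons that lie within the members' range of mean counts had a median of -0.02 and a width of 0.75. Of these 5671 genes, 325 were higher and 312 lower by at least 2-fold, and 856 and 867 by at least 1.5-fold. A log2 ratio above 0 was found for 33 of the 47 members and for 49.2% of all genes compared. The order of the members by level was much the same in both libraries, with a Spearman rho of 0.959 over 47 genes for CPM per kb of transcript, a description across genes of the same 2 libraries.

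**Figure D1:**
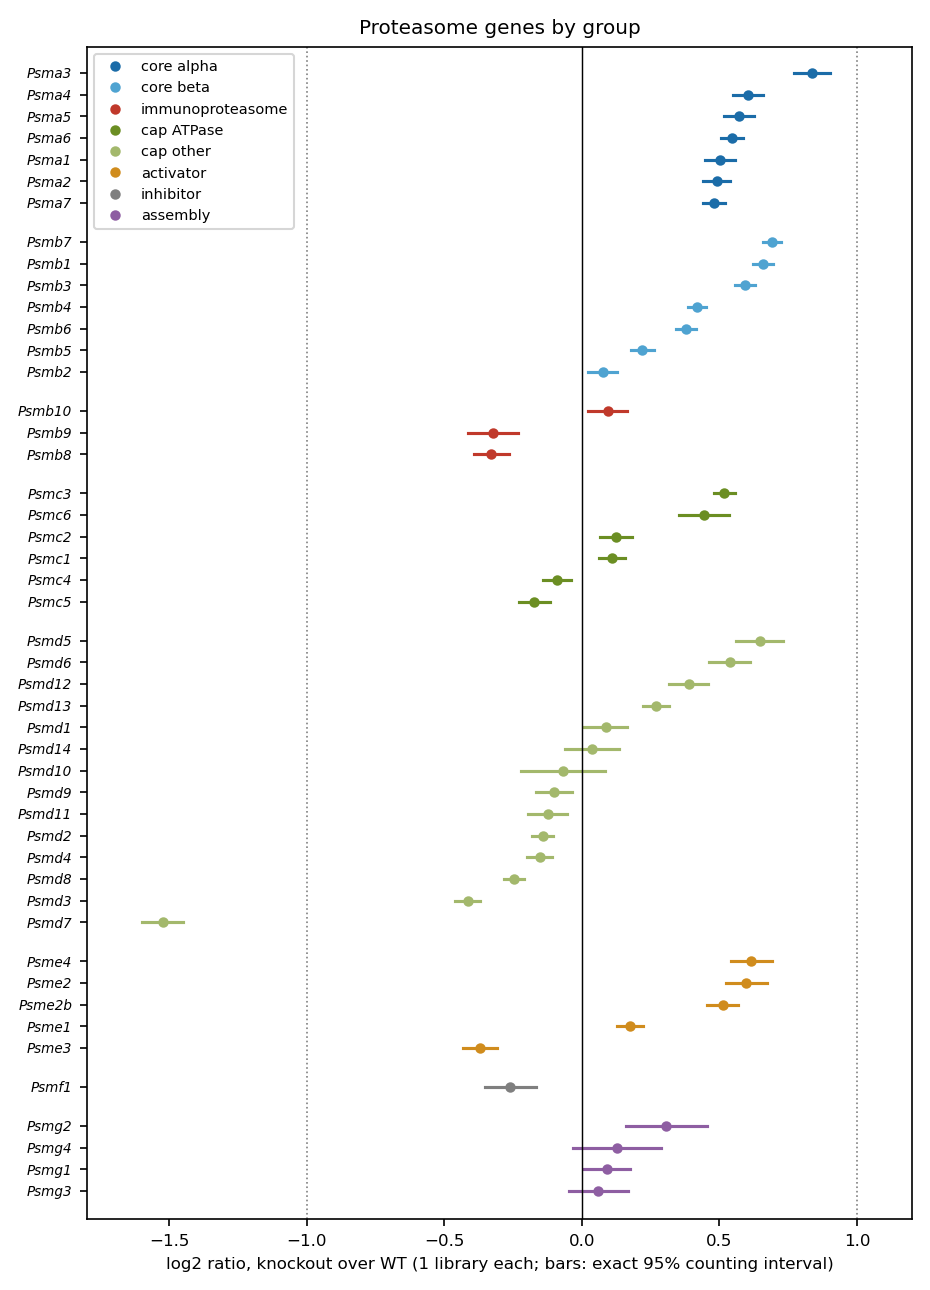
Log2 ratio of knockout over WT (horizontal axis) for the 47 members compared, in rows by group (core is the 20S core, cap the 19S cap); points are single ratios from 1 library each, bars the exact 95% counting interval, and dotted lines mark 2-fold. All 14 constitutive 20S subunits lie right of 0, the 19S subunits lie on both sides, and Psmd7 stands alone at -1.52.

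Among the groups of at least 5 genes, the alpha ring was the most even, by ratios without correction for GC content. Its 7 genes compared had log2 ratios from 0.48 to 0.84 and a median of 0.55. Psma3 was the highest of the group and of all members, by ratios that are not corrected for GC content. The order with that correction is given further on. It had 3169 counts (WT) and 5333 (knockout), 47.8 and 85.4 CPM, a log2 ratio of 0.84 (interval 0.77 to 0.90). The gene lies on chromosome 12 from 70974621 to 70996347 of GRCm38. Psma7 was the lowest of the ring, at 8965 and 11775 counts, a log2 ratio of 0.48 (interval 0.44 to 0.52). Psma1 had 4548 and 6072 counts, 68.6 and 97.2 CPM, a log2 ratio of 0.50. Psma2, Psma4, Psma5 and Psma6 lay between these ends, at 0.49, 0.60, 0.57 and 0.55. The alpha subunits are needed in equal number in every core, and, without correction for GC content, the highest and lowest ratios of the ring differed by less than those of any other group of at least 5 genes.

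The eighth alpha gene, Psma8, replaces Psma7 in the testis. It had 20 and 23 counts and was not compared.

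The constitutive beta subunits also lay above 0, all 7 of them, with a wider range. Psmb7 was the highest, with 12220 and 18584 counts, 184.4 and 297.5 CPM, a log2 ratio of 0.69 (interval 0.66 to 0.72). Psmb2 was the lowest, at 5879 and 5839 counts, a log2 ratio of 0.08 (interval 0.02 to 0.13), so its level was nearly equal in both libraries. The structural subunits Psmb1, Psmb3 and Psmb4 had log2 ratios of 0.66, 0.59 and 0.42. Psmb11, the subunit of the cortical epithelium of the thymus, was listed at 0 in both libraries. It has 2 exons, and genes with few exons were often extreme here. Past 2-fold in either direction were 44.4% of the genes with 1 exon, 36.0% of those with 2 exons and 15.4% of those with at least 3.

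Together the 14 constitutive core genes took 1711 CPM (WT) and 2426 CPM (knockout). The 20 genes of the 19S cap took 1664 and 1641 CPM. The 20S sum was thus higher in the knockout library, while the 19S sum differed little. Of the 6 hepatocyte markers 5 had log2 ratios from 0.50 for Cyp2e1 to 1.17 for Hnf4a and Apoa1 was level (-0.04 with total count scaling), and their part in the result was not tested. In whole tissue, fewer cells of a type and less RNA per cell cannot be told apart.

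**Figure D2:**
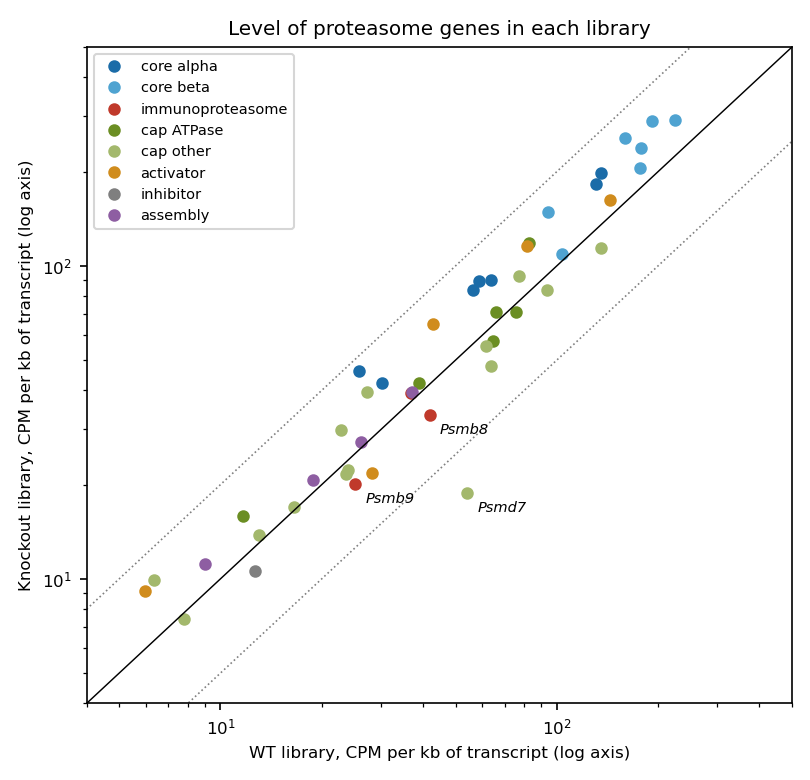
Level of each of the 47 members in the WT library (horizontal) and the knockout library (vertical), in CPM per kb of transcript on log axes; the solid line marks equal levels and the dotted lines 2-fold. The 20S genes lie above the line, the inducible Psmb8 and Psmb9 below it, and Psmd7 lies beyond the lower dotted line.

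The active sites of the core are held by 3 constitutive subunits, each with an inducible counterpart that takes the same place. Psmb5, with chymotrypsin-like activity, is replaced by Psmb8; Psmb6, with caspase-like activity, by Psmb9; and Psmb7, with trypsin-like activity, by Psmb10. Promoter windows of both members of the first 2 pairs and of Psma3, the highest member without correction for GC content, are printed to show what stands upstream of the genes that the comparison turns on. They come from RefSeq and run from 250 bases before the start site to 50 after it, 5' to 3' on the gene's strand. Capitals mark matches, on either strand, to 4 motif cores that are described further on.
Psmb5 (GRCm38.p6, chr14:54617946-54618245, minus strand): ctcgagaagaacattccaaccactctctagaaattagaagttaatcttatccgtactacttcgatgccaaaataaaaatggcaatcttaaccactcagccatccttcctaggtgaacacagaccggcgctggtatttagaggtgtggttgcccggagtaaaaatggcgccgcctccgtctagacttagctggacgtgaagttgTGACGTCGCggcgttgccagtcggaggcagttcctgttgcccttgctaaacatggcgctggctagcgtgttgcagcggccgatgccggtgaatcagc
Psmb8 (GRCm38.p6, chr17:34197945-34198244, plus strand): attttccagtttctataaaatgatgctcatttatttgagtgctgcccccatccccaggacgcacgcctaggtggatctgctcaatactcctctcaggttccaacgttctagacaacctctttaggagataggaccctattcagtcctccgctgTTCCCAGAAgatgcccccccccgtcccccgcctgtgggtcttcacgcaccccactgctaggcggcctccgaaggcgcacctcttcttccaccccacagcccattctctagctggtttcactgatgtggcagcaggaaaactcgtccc
Psmb6 (GRCm38.p6, chr11:70525107-70525406, plus strand): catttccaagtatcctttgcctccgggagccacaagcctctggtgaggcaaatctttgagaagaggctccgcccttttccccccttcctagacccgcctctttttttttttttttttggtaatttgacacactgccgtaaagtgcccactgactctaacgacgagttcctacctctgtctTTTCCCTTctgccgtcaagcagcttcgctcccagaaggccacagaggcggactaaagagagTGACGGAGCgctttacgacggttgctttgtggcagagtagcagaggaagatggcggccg
Psmb9 (GRCm38.p6, chr17:34187281-34187580, minus strand): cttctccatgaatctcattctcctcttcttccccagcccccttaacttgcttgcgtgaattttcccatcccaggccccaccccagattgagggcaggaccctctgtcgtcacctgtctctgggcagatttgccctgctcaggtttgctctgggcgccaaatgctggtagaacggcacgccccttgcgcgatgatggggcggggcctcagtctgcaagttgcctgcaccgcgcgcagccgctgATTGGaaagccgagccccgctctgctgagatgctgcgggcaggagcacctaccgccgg
Psma3 (GRCm38.p6, chr12:70974373-70974672, plus strand): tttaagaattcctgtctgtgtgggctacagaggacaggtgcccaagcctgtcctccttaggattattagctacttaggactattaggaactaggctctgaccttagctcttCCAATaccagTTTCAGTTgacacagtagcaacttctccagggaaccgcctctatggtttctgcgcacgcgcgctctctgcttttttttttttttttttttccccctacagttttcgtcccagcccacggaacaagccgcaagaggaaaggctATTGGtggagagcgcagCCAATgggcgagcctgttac

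Psmb8 had 4515 counts (WT) and 3387 (knockout), 68.1 and 54.2 CPM, a log2 ratio of -0.33 (interval -0.39 to -0.26). Psmb9 had 2248 and 1693 counts, 33.9 and 27.1 CPM, a log2 ratio of -0.32 (interval -0.42 to -0.23). Both were thus lower in the knockout library, by 1.26-fold and 1.25-fold, which is short of either limit. Psmb10 had 3204 and 3224 counts, 48.3 and 51.6 CPM, a log2 ratio of 0.09 (interval 0.02 to 0.17). It did not share the lower level of the other inducible subunits. The constitutive partners Psmb5, with 8913 and 9784 counts, and Psmb6, with 11908 and 14590, had log2 ratios of 0.22 (interval 0.18 to 0.26) and 0.38 (interval 0.34 to 0.41).

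The share of an inducible subunit in its pair does not depend on how the libraries are scaled. Psmb8 made up 33.6% of the counts of Psmb8 and Psmb5 in the WT library (exact Clopper-Pearson 95% interval 32.8% to 34.4%) and 25.7% in the knockout library (24.97% to 26.5%). Psmb9 made up 15.9% of its pair in WT (15.3% to 16.5%) and 10.4% in the knockout (9.93% to 10.9%). Psmb10 made up 20.8% of its pair in WT (20.1% to 21.4%) and 14.8% in the knockout (14.3% to 15.3%). All 3 shares were lower in the knockout library, by 7.91, 5.48 and 5.99 percentage points, and the counting intervals of the libraries did not overlap. Counting intervals that exclude a difference of 0 were common at this depth. Of all 12064 genes compared, the interval of the log2 ratio lay wholly above 0 for 4739 and wholly below 0 for 4824. For the pair of Psmb10 the difference comes with the high ratio of Psmb7, since Psmb10 itself was nearly level. Over the 6 genes, the part of the inducible subunits was 23.2% (WT) and 16.2% (knockout).

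Per kb of transcript, the inducible subunits were the lesser part of each pair in both libraries. Psmb8 stood at 41.8 CPM per kb in the WT library against 177 for Psmb5. Psmb9 stood at 25.1 against 225 for Psmb6, and Psmb10 at 36.9 against 159 for Psmb7. In the knockout library the inducible levels were 33.3, 20.04 and 39.4 CPM per kb and the constitutive ones 206, 293 and 256. Transcript length is the median over the basic coding transcripts of a gene. With the length of all exons in its place, the inducible part of the Psmb10 pair was 34.5% (WT) and 25.8% (knockout), and the order within the pairs was the same.

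**Figure D3:**
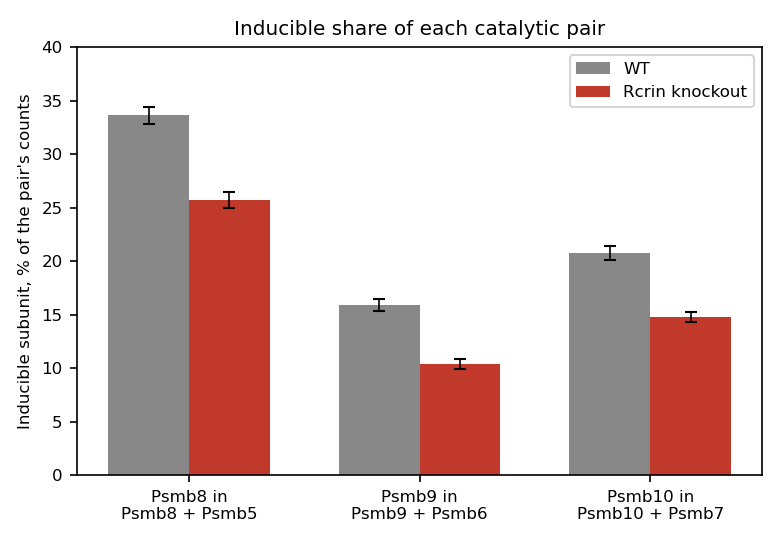
Share of the inducible subunit in the counts of each catalytic pair (vertical axis, %), in the WT library and the Rcrin knockout library; bars are single libraries and whiskers exact 95% binomial intervals for counting error. The share is lower in the knockout library in all 3 pairs, from 33.6% to 25.7% for Psmb8, from 15.9% to 10.4% for Psmb9 and from 20.8% to 14.8% for Psmb10.

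Psmb8 and Psmb9 lie in the MHC region of chromosome 17, where Psmb9 (34181987 to 34187764, minus strand) is head to head with the peptide transporter gene Tap1. The annotated starts of Psmb9 and Tap1 are 211 bases apart and their exons share 212 bases. Whether strand was used in counting is not stated, so reads of that stretch are uncertain between the genes. Tap1 had 2664 and 1812 counts and a log2 ratio of -0.47 (interval -0.56 to -0.38). Its partner Tap2 had 2508 and 1434 counts and a log2 ratio of -0.72. Tap1, Tap2, Psmb8 and Psmb9 were thus all lower in the knockout library by uncorrected ratios. With a trend in GC content removed they stood closer to level, at -0.23, -0.47, -0.16 and -0.10.

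The wider list of class I antigen presentation genes had a median log2 ratio of -0.39, and of -0.28 with the GC trend removed. Of its 12 genes, 10 were below 0, where 50.8% of all genes compared lay, and 1 was lower and 0 higher by at least 2-fold, where 8.61% and 8.45% of all genes lay. The lowest was the chaperone Calr at -1.01, with 97325 and 45587 counts. The highest was the light chain B2m at 0.44, with 110836 and 141909 counts. With a trend in GC content removed, the chaperone Canx was the lowest, at -1.22 after -0.84 without correction, B2m stood at 0.03, and 2 genes, Canx and Calr, were lower by at least 2-fold. The median of 12 interferon signalling genes was -0.50, and 11 were below 0. Among these, Socs1 (-1.73), a feedback inhibitor with 2 exons, and Stat2 (-1.04), a signal transducer, were lower by at least 2-fold, as were 8.61% of all genes, and 36.0% of genes with 2 exons were past 2-fold in either direction. The kinase gene Jak2 was the highest at 0.62. With the GC trend removed Stat2 stood at -0.90, short of 2-fold.

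Leukocytes carry much of the inducible proteasome of a tissue, so their markers are given beside it. Of 6 leukocyte markers 5 were below 0, where 50.8% of all genes compared lay. None of the 6 was listed at 0, and they summed to 159 CPM (WT) and 91.2 CPM (knockout). Cd53 was the lowest at -1.44, Laptm5 stood at -1.15, and Ptprc, which encodes CD45, was the highest at 0.09 with 322 and 324 counts. With the GC trend removed 5 were again below 0, but Ptprc stood at -0.32 and Cd52 was the highest at 0.03. The 6 Kupffer cell and macrophage markers summed to 634 and 495 CPM, with 5 below 0, from Cd68 at -1.30 to Vsig4 at 1.02, which was higher with 1392 and 2665 counts. With the GC trend removed Vsig4 stood at 0.80, short of 2-fold. Of 6 T and NK lymphocyte markers 5 were compared and summed to 16.8 and 12.9 CPM, with 4 below 0, from Cd3d at -0.82 to Cd2 at 0.33. Of 6 B lymphocyte markers 4 were compared and summed to 220 and 173 CPM. Most of the sum came from Cd74 (151 and 89.6 CPM) and H2-Aa (66.1 and 78.5 CPM). These class II antigen presentation genes are not restricted to B lymphocytes, so the sum does not track those cells alone. The sum was lower with Cd74 at -0.75, while the other 3 were above 0, with Cd79a at 0.75 and Cd79b the highest at 0.85. With the GC trend removed Cd74 stood at -0.51 and Cd79b at 1.02. Endothelial markers were split, 3 above and 3 below 0, from Stab2 at -0.63 to Lyve1 at 0.82. The part of these cells in the lower level of Psmb8 and Psmb9 was not tested.

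In the 19S cap the ATPase ring, which unfolds the substrate, had a median log2 ratio of 0.12 over 6 genes, 4 of them above 0. Psmc3 was the highest, with 8930 and 12052 counts, 134.7 and 192.9 CPM, a log2 ratio of 0.52 (interval 0.48 to 0.56). Psmc5 was the lowest, at 5643 and 4715 counts, a log2 ratio of -0.17 (interval -0.23 to -0.12). Psmc6 stood near the upper end at 0.44, but at 0.03 with the GC trend removed and -0.11 with that of coding transcripts removed, where it was the lowest of the ring. Without correction, Psmc1, Psmc2 and Psmc4 lay within 0.13 of 0, at 0.11, 0.12 and -0.09. Subunits of 1 ring, present in equal number in the particle, thus differed in direction between these libraries. The gene Psmc3ip matches the symbol rule but encodes a factor of meiotic recombination and no subunit. It had 30 and 26 counts and was not compared.

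The other 14 genes of the cap had a median of -0.09, with 8 below 0. Psmd7 had 5655 counts (WT) and 1852 (knockout), 85.3 and 29.6 CPM, which is 2.88-fold lower (log2 ratio -1.52, interval -1.60 to -1.45). It lies on chromosome 8 from 107580381 to 107588464, has up to 7 exons and shares no exon with another annotated gene. Its product forms a dimer with the product of Psmd14, the deubiquitinase that cuts ubiquitin chains off the substrate. Psmd14 had 1688 and 1632 counts and a log2 ratio of 0.04 (interval -0.06 to 0.14). With the GC trend removed Psmd14 stood at -0.45, and at -0.31 with that of coding transcripts removed, while Psmd7 stood at -1.29 and -1.53. By uncorrected ratios the next lowest gene of the cap was Psmd3 at -0.42, with 9073 and 6412 counts. Under the same 2 corrections Psmd3 stood at -0.18 and -0.15. The next lowest was then Psmd14 with the GC trend removed, and Psmd10, at -0.43, with that of coding transcripts removed.

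The large scaffold subunits were close to level. Psmd2 and Psmd1 had log2 ratios of -0.14 and 0.09. The ubiquitin receptor Psmd4 stood at -0.15 with 8224 and 6968 counts. Of the lid subunits, Psmd6, Psmd12 and Psmd13 were above 0, at 0.54, 0.39 and 0.27, and Psmd8 and Psmd11 below, at -0.25 and -0.13. Psmd5, Psmd9 and Psmd10 encode chaperones that help build the cap and then leave it. Psmd5 was the highest of the group, at 1847 and 2725 counts, a log2 ratio of 0.65 (interval 0.56 to 0.73), while Psmd9 and Psmd10 stood at -0.10 and -0.07. The uncorrected interval of Psmd10 includes 0. With the GC trend removed Psmd10 stood at -0.43, and likewise at -0.43 with that of coding transcripts removed. Psmd9 shares 1849 exon bases with a noncoding gene on the opposite strand, so its value is uncertain. In all, 15 of the 50 genes share exon bases with another gene, Psmb7 (with Nek6), Psmd13 (with Sirt3) and Psmc3 (with Slc39a13) among them.

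Activators open the core without the 19S cap. Psme1 and Psme2 encode the ring that interferon induces together with the immunoproteasome. They had 6795 and 7225 counts and 2501 and 3566 counts, with log2 ratios of 0.17 (interval 0.13 to 0.22) and 0.60 (interval 0.52 to 0.67). Neither was lower, unlike Psmb8 and Psmb9. Psme2b is a copy of Psme2 with 1 exon and had 4508 and 6060 counts. Reads of these near-identical genes are uncertain between them, and their sum of 7009 and 9626 counts gave a log2 ratio of 0.54 (interval 0.50 to 0.59).

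The other activators stood at opposite ends. Psme4, which encodes a large nuclear cap involved in the turnover of histones, was the highest, at 2564 and 3704 counts, a log2 ratio of 0.62 (interval 0.54 to 0.69). With the GC trend removed it stood at 0.12, and at 0.30 with that of coding transcripts removed, and Psme2 was then the highest activator, at 0.63 and 0.67. Psme3, the nuclear relative of the interferon-induced ring, was the lowest, at 4975 and 3630 counts, a log2 ratio of -0.37 (interval -0.43 to -0.31). Psmf1, named as an inhibitor of the core, had 2182 and 1717 counts and a log2 ratio of -0.26 (interval -0.35 to -0.17). The 4 assembly chaperones Psmg1 to Psmg4, which guide the alpha ring, had a median of 0.11. Psmg2 was the highest at 0.31, with 705 and 822 counts, and Psmg3 the lowest at 0.06, with 1404 and 1379. The intervals of Psmg3 and Psmg4 include 0, and with the GC trend removed Psmg2 was the lowest at 0.11 and Psmg4 the highest at 0.35.

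Log2 ratios of all genes fell with GC content in these libraries, and the members followed. Spearman's rho between the log2 ratio and the GC content of a gene's transcripts was -0.33 over 11915 genes and -0.48 over the 47 members, a description across genes that share the same libraries. The median of all genes was 0.38 below 45% GC and -0.26 from 55% GC up. The alpha genes are low in GC, with a median of 45.7%, and the inducible genes high, with a median of 55.3%. With a smooth GC trend over all genes removed, all 14 constitutive core genes were still above 0, with a median of 0.44, but their order changed. Psma7 became the highest of the alpha ring at 0.53, Psma3 moved to 0.50 and Psma2 to 0.08, and with the trend of coding transcripts removed these genes stood at 0.54, 0.46 and 0.01. Psmb3 was then the highest of all members, at 0.69 and 0.76. Psmd7 was at -1.29 and remained lower by at least 2-fold. Psmb8 and Psmb9 moved to -0.16 and -0.10, and Psmb10 to 0.35.

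The pair shares moved differently under this correction. The log2 ratio of Psmb8 over Psmb5 between the libraries was -0.55, and -0.62 with the trend removed. That of Psmb9 over Psmb6 was -0.70, and -0.62 with the trend removed. That of Psmb10 over Psmb7 was -0.60, but -0.07 with the trend removed, and -0.29 when GC content was taken from coding transcripts alone. Psmb10 and Psmb7 lie far apart in GC content, at 58.5% and 44.7%, so the lower share of Psmb10 rests on the uncorrected counts.

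**Figure D4:**
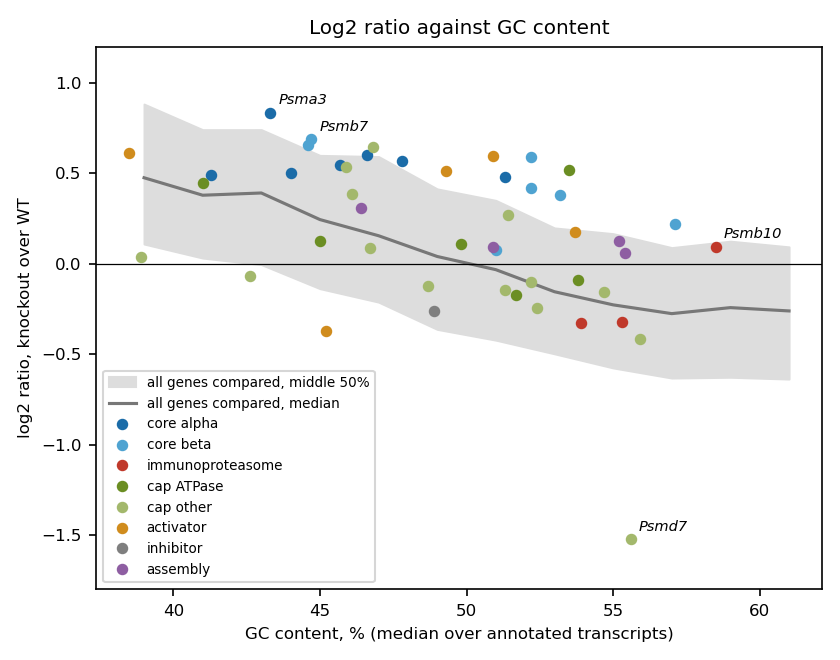
Log2 ratio of knockout over WT (vertical) against the GC content of a gene's transcripts (horizontal, %) for the 47 members, over the median (line) and middle 50% (band) of all genes compared with counts in both libraries, in bins of 2 percentage points. The line falls with GC content; most 20S genes lie above it, and Psmd7 lies far below the band.

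Proteasome genes are switched on by Nfe2l1, a transcription factor that the proteasome itself destroys and that pairs with small Maf proteins. A list of 16 regulators, in which the median log2 ratio was -0.10, held 4 genes lower and 1 higher by at least 2-fold, where 8.61% and 8.45% of all genes compared lay. Nfe2l1 had 8570 counts (WT) and 2238 (knockout), 129 and 35.8 CPM, which is 3.61-fold lower (log2 ratio -1.85, interval -1.92 to -1.78). The small Maf genes Mafk, with 1848 and 509 counts, and Mafg, with 269 and 94, had log2 ratios of -1.77 and -1.43. The constitutive core genes, which are among the known targets of Nfe2l1, were higher in the same library in which it was lower. The genes of the cap did not share this, with a median log2 ratio of -0.02. The Nfe2l1 protein was not measured, and the part of Nfe2l1 in these levels was not tested.

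The rest of the list was mixed. Stat3, a transducer of interleukin signals, was the remaining gene lower by at least 2-fold, at -1.12 with 5583 and 2420 counts, and stood at -0.98 with the GC trend of coding transcripts removed. Nfya, a subunit of the factor that binds CCAAT boxes, was the highest at 1.25, with 138 and 310 counts, and its partners Nfyb and Nfyc stood at 0.82 and -0.05. Nfe2l2, the relative of Nfe2l1 that responds to oxidants, stood at 0.01. Of the enzymes that process the Nfe2l1 protein, the protease gene Ddi2 stood at -0.48 and the deglycosylase gene Ngly1 at 0.82. With the GC trend removed Ddi2 stood at -0.47 and Ngly1 at 0.44.

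The motif cores were searched on both strands of the RefSeq promoter windows, where 40 of the 47 members had at least 1 window and 43 windows in all. The core bound by Nfe2l1 with small Maf proteins, TGACNNNGC, was found in 6 of these windows (14.0%) and in 12.4% of 32851 windows of all genes. The genes were Psmb5, Psmb6, Psmc6, Psmd9, Psmd12 and Psme4, with log2 ratios from -0.10 to 0.62. The CCAAT box was found in 30.2% of the members' windows and in 37.4% of all windows. It stands in 13 members, with log2 ratios from -0.37 for Psme3 to 0.84 for Psma3. Among these are 5 of the 7 alpha genes compared, and Psma3 has 3 matches. The core bound by interferon regulatory factors, AANNGAAA, was found in 30.2% of the members' windows against 23.9% of all, and in the windows of neither Psmb8 nor Psmb9. The gamma-activated core, TTCNNNGAA, was found in 6.98% against 8.30%. It stands in the window of Psmb8 97 bases before the start. A match describes letters in a window and does not show that a factor binds there.

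The remaining lists of genes that work with the proteasome had medians on both sides of 0, from -0.21 to 0.32. Of the components without a Psm name, the maturation factor Pomp, which helps to close the core, had 8571 and 11366 counts and a log2 ratio of 0.49. The small cap subunit Sem1 was the highest at 0.70, with 1601 and 2447 counts, and the ubiquitin receptor Adrm1 the lowest at -0.26, with 9687 and 7631. With the GC trend removed Pomp was the highest at 0.46, Sem1 stood at 0.25 and Adrm1 at -0.01. Akirin2, which carries proteasomes into the nucleus, stood at 0.05, and Paaf1 was not analysed here.

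Proteins that dock on the proteasome had a median log2 ratio of 0.32 over 9 genes, 8 of them above 0 and none past 2-fold. Zfand5 was the highest at 0.70 and Zfand2a the lowest at -0.27. The median was 0.06, and 5 were above 0, once the GC trend was removed. The median of 8 ubiquitin receptors and shuttles was -0.21, with 7 below 0, from Ddi2 at -0.48 to Ubqln1 at 0.05. The p97 complex, which extracts substrates from membranes and complexes, had a median of 0.16 over 10 genes, from Nploc4 at -0.29 to Faf1 at 0.38. With the GC trend removed its median was 0.02, and it ran from Plaa at -0.62 to Ubxn1 at 0.43.

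Enzymes that activate ubiquitin or its relatives differed in direction. Uba1, the main activating enzyme gene, was the lowest at -0.56, with 14371 and 9201 counts. The alternative one, Uba6, stood at 0.91 with 120 and 213 counts. Uba7, which activates the interferon-induced modifier Isg15, stood at -0.08 with 818 and 728 counts. With the GC trend removed Uba1, Uba6 and Uba7 stood at -0.48, 0.40 and 0.13.

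**Figure D5:**
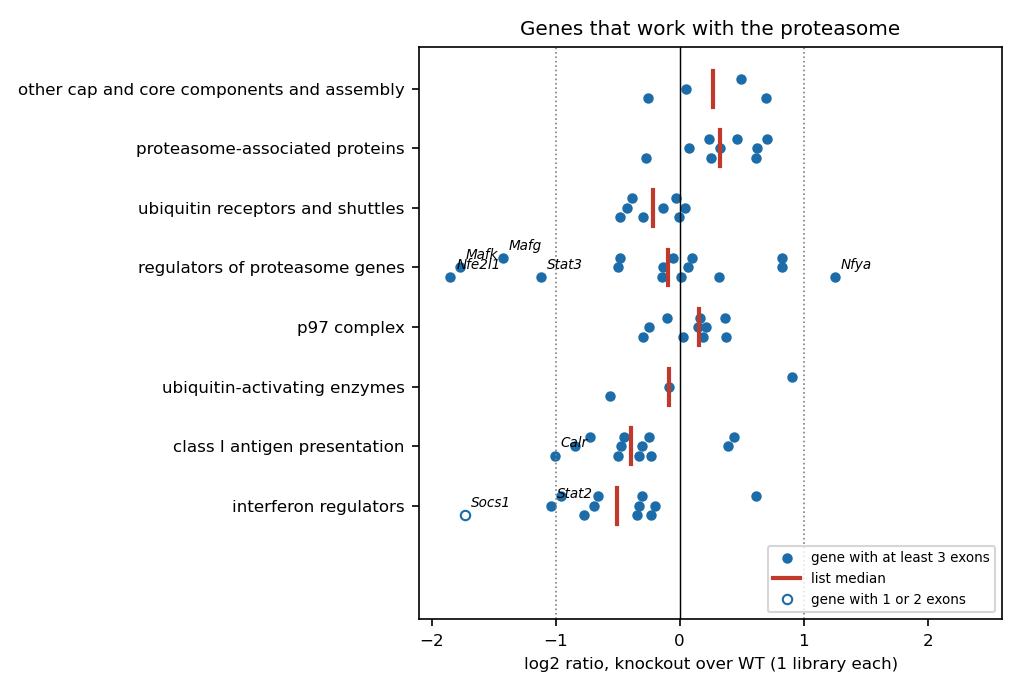
Log2 ratio of knockout over WT (horizontal) for the genes compared in 8 lists that work with the proteasome; points are genes from 1 library each, open points genes with 1 or 2 exons, red bars list medians, and dotted lines mark 2-fold. Nfe2l1, Mafk and Mafg lie left of -1 among the regulators, and Nfya lies right of 1.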

How the data were processed

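Per the labels' protocols, Trizol was used for RNA and a SMARTER mRNA-Seq kit for libraries. The deposited values are unnormalized counts of reads for each Ensembl gene, as the file headers name them. The submitters' processing notes name the build GRCm38 (mm10). The aligner, counting program, annotation release and use of strand are not given in the sources used here.

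Genes were named from GENCODE M21 (GRCm38), which holds 55240 of the 55421 listed genes. Scaling used the TMM factors of edgeR 4.0.16 (R 4.3.3), and 0.5 reads, scaled to library size, were added before taking log2. Exact intervals cover counting error only. The calculation was tested on simulated counts.

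Alternatives were DESeq2 1.42.0 size factors, total count, other level filters and fold limits, 5 added reads, genes of at least 3 exons, the mean, and removal of a lowess trend (span 0.3) with GC content. Taking GC content from coding transcripts was added after the data were seen. The members and lists were chosen with earlier results of these data known, and the motifs after values were seen. Named were the catalytic subunits, the ends of each group and list, and members past 2-fold, all by uncorrected ratios. Others are named with only their log2 ratio. Some genes of the ubiquitin system are not reported here.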

Additional observations from a re-analysis of the deposited data

How the results depend on the processing

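No paired analysis was possible because there is 1 library per genotype, so no replicate could be left out either. The median log2 ratio of the 47 members, 0.17, was 0.12 with total count scaling and 0.12 with the GC trend removed. The inducible median, -0.32, was -0.10 with the GC trend removed, -0.0945 with that of coding transcripts and -0.19 as a mean. The ratio of Psmb10 over Psmb7, -0.60, was -0.0668 and -0.29 under the same corrections. At 1.5-fold 8 members were higher, and at 4-fold 0 were lower. Psmd7 alone was lower by at least 2-fold under every scaling, filter and correction tried at that limit. Removing the GC trend turned the sign of 5 members, Psmc2, Psmc4, Psmd1, Psmd4 and Psmd14, of which only Psmd14 also turned with total count scaling. With that of coding transcripts removed 6 turned, Psmc4, Psmc6, Psmd1, Psmd4, Psmd9 and Psmd14. The compared members had at least 644 counts in each library, and counting intervals include 0 for 4 of them, Psmd10, Psmd14, Psmg3 and Psmg4. Of all 12064 genes compared, the intervals lay wholly above 0 for 4739 and wholly below 0 for 4824. The lack of further libraries limits all values.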
